A study of Mus musculus with 16 samples.

Results

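The effect of 6 weeks of Western diet on the aortic transcriptome was measured in ApoE-/- mice, which lack apolipoprotein E and develop atherosclerosis. Every mouse carried this genotype and was 8 weeks old when feeding began. The 4 Western-diet aortas of 6 weeks were set against 4 aortas from mice fed a normal purified laboratory diet for the same time. A further 4 Western-diet and 4 normal-diet aortas of 22 weeks, from the same design, served for the estimate of spread and for a comparison of the diet effect between times. The design text names ApoE-/- mice and the genotype field reads "APOE knockdown", and no wild-type mice were used, so an effect of the diet that depends on the lack of apolipoprotein E cannot be told apart from one that does not. Nothing in the labels ties a library to its own animal, so p-values measure the spread between these libraries, which may be technical. The members are the 20425 loci, of 70603 in the deposited table, that name a gene and reach 1 FPKM (a fragment rate per unit of transcript length and of library size) in at least 4 of the 8 libraries of 6 weeks. Of these, 19070 name 1 gene and 1355 name 2 or more.

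A Western diet is rich in fat, sugar and cholesterol. In lipid-storing cells, new fatty acids are built from citrate that leaves the mitochondria through carriers, and the reducing power for this, NADPH, comes largely from the pentose phosphate pathway and malic enzyme. A dissected mouse aorta holds smooth muscle, endothelium and fibroblasts, and usually also the fat around the vessel, which in the chest is of the brown type and is rich in these enzymes. In whole tissue, fewer cells of a type and less RNA per cell cannot be told apart.

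Deposited totals ranged from 64.6 to 71.6 M estimated counts in Western-diet libraries and from 61.1 to 81.4 M in normal-diet libraries. The aortic label held against its markers, since the smooth muscle actin gene Acta2 averaged 1924 FPKM over the 8 libraries and endothelial Cdh5 averaged 18.2 FPKM. Fat, nerve, liver and lymphoid markers were present as well. Summed brown adipocyte markers came to between 1268 and 2315 FPKM on Western diet and between 1570 and 2168 FPKM on normal diet, led by Ucp1, the uncoupling protein of brown fat, at 851 FPKM on average. Single libraries stood apart for other tissues. Thymocyte markers summed to 85.5 FPKM in Western-diet library 1, against 12.6 to 26.9 FPKM in the other 7, B and plasma cell markers to 49.2 FPKM in normal-diet library 2, against 2.15 to 6.80 FPKM in the others, and nerve markers to 517 and 339 FPKM in Western-diet libraries 2 and 4, against 30.6 to 94.0 FPKM in the rest. The ranges of all 20 marker lists overlapped between the diets. All 8 libraries had the pattern of male animals, with at most 0.089 FPKM of Xist and at least 5.87 FPKM at the locus of Ddx3y.

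More loci passed as lower than as higher on Western diet by the edgeR test. By edgeR's quasi-likelihood test, 58 of the 20425 loci passed at an adjusted p under 0.05, which is 0.284%, with 11 higher (0.0539%) and 47 lower (0.23%) on Western diet. At an unadjusted p under 0.05 there were 2169 loci. Fold changes of all loci were balanced, with a median log2 fold change of 0.00 and 50.5% of them positive. TMM scaling centres the bulk of fold changes near 0, so this balance is largely set by the scaling. The split by direction depended on the tool, since DESeq2 called 199 loci higher and 198 lower, and limma on log2(FPKM + 0.5) called 38 higher and 65 lower. For each of the 58 loci, the 4 Western-diet values lay wholly above or wholly below the 4 normal-diet values on the scale of CPM after TMM scaling, which held for 8.09% of all loci. The 58 were chosen by a test on these same values, so that separation is largely built into the choice. Of the 58, 3 are fatty acid synthesis genes (Acly, Me1 and Thrsp) and 3 are clock genes (Hlf, Per3 and Cry2), and the other 52 are the subject here. When each of the 8 libraries was left out in turn, 24 of the 58 loci passed every time, and the number passing ranged from 26 to 71. It fell furthest, to 26, without Western-diet library 2 and came to 36 without normal-diet library 1 or normal-diet library 4.

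**Figure D1:**
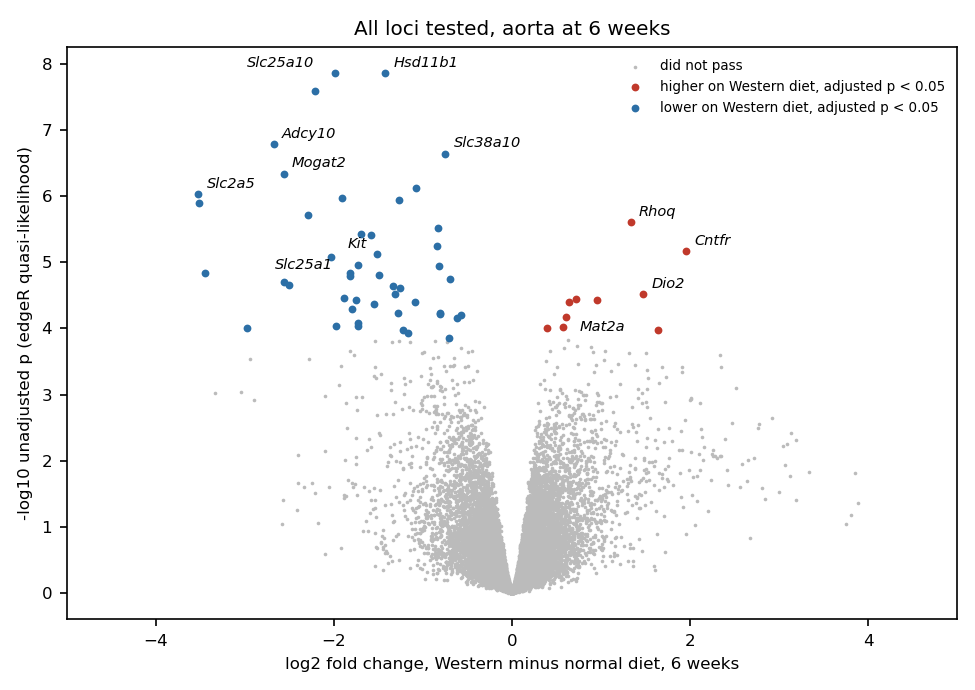
Each point is 1 of the loci tested, by its log2 fold change (Western minus normal diet at 6 weeks) and the -log10 of its unadjusted p from edgeR, with loci at an adjusted p under 0.05 in red (higher) or blue (lower). The passing loci lie mostly on the lower side, from Slc2a5 at -3.52, and 2 loci beyond 5 on the x axis, Atp7a and the passing Erich1 locus, are not drawn.

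The fructose transporter gene and 3 members of the NADPH supply list fell on Western diet. The largest fall belonged to Slc2a5 (chr4:150119283-150144169, GRCm38), which encodes the fructose transporter GLUT5. It had 0.544, 0.568, 0.315 and 0.643 FPKM in the 4 Western-diet aortas, against 8.09, 6.13, 5.03 and 3.94 FPKM in the 4 normal-diet aortas. Every Western-diet value was under 1 FPKM, so the locus entered the test through the normal-diet libraries alone. Its log2 fold change was -3.52 with a standard error (SE) of 0.45 (edgeR adjusted p = 0.00237), and it passed whichever library was left out. Pgd, 6-phosphogluconate dehydrogenase of the pentose phosphate pathway, had 14.8, 19.0, 15.9 and 20.5 FPKM on Western diet and 50.8, 46.1, 36.6 and 37.7 FPKM on normal diet (log2 fold change -1.33, SE 0.22, edgeR adjusted p = 0.015). The groups were far apart, yet the call was lost without Western-diet library 2 or 3 or normal-diet library 1, with an edgeR adjusted p of up to 0.0556. Tkt, the transketolase of the same pathway, shares its locus with the microRNA Mir3076, and this locus had 48.2, 60.4, 50.4 and 71.6 FPKM on Western diet and 197, 163, 143 and 163 FPKM on normal diet (log2 fold change -1.58, SE 0.23, edgeR adjusted p = 0.0049).

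Of the 13 measured members of the pentose phosphate and NADPH list, 3 fell and none rose, where 0.23% of all loci fell. The groups did not overlap for 8, all lower on Western diet, where 4.57% of all loci were apart in that direction. The list median was a log2 fold change of -0.54, against 0.00 over all loci. Besides Pgd, the passing members were Me1, which is also in the fatty acid synthesis list, and a Tkt locus inside an intron of the gene on the opposite strand, which stood for Tkt because it names that gene alone. Me1 passed in 2 and this Tkt locus in 3 of the 8 refits that left out a library. The rate-setting enzyme gene G6pdx had a log2 fold change of -0.90 (SE 0.21, edgeR adjusted p = 0.0877) and Taldo1, transaldolase, one of -0.78 (SE 0.19, edgeR adjusted p = 0.114), and neither passed. In the fructose and glycolysis list, Slc2a5 was the only one of 24 measured members to pass. A positive fold change was found for 4 of the 24, where 50.5% of all loci had one, and the median was -0.37. A total of 6 were apart, all lower, where 4.57% of all loci were. These 6 include Slc2a5, which entered the test through the normal-diet libraries alone. The enolase gene Eno1 came closest of the rest, at 65.7, 97.5, 74.4 and 101 FPKM on Western diet and 175, 175, 147 and 166 FPKM on normal diet (log2 fold change -1.01, SE 0.21, edgeR adjusted p = 0.0619). Of the glucose transporter genes, Slc2a1 had a log2 fold change of 0.10 (SE 0.14, edgeR adjusted p = 0.887) and Slc2a4 one of -0.47 (SE 0.21, edgeR adjusted p = 0.458). Khk, the ketohexokinase that phosphorylates fructose, differed less, with a log2 fold change of -0.46 (SE 0.20, edgeR adjusted p = 0.42) and overlapping groups.

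Carriers that link mitochondria to cytosolic lipid synthesis fell as well. Slc25a10, the dicarboxylate carrier (chr11:120491840-120499187), had 1.85, 2.5, 2.88 and 2.90 FPKM on Western diet, against 10.7, 10.4, 10.3 and 7.61 FPKM on normal diet. The log2 fold change was -1.99 (SE 0.18, edgeR adjusted p = 0.000144), one of the lowest p-values of the comparison, and it passed in all 21 alternatives run. A second locus that names Slc25a10 and starts 1804 bases beyond its end, with no annotated transcript, moved by -1.70 (SE 0.24, edgeR adjusted p = 0.0049). Slc25a1, the citrate carrier (chr16:17925223-17928219), had 44.0, 60.6, 28.4 and 51.4 FPKM on Western diet and 193, 183, 118 and 135 FPKM on normal diet (log2 fold change -1.81, SE 0.29, edgeR adjusted p = 0.0121). AA914427, a gene model on the opposite strand about 2 kb from Slc25a1, had 0.880, 0.594, 0.342 and 0.461 FPKM on Western diet and 8.42, 8.81, 4.26 and 3.89 FPKM on normal diet (log2 fold change -3.51, SE 0.46, edgeR adjusted p = 0.00241). The use of strand in counting is not given in the sources used here, so reads of these neighbours may not be fully separated. Of 20 measured members of the carrier and pyruvate entry list, these 2 carriers fell and none rose, where 0.23% of all loci fell. A total of 7 were apart, all lower, where 4.57% of all loci were, and the median was -0.17. Pdk1 and Pdhb, a kinase and a subunit of the pyruvate dehydrogenase complex, had log2 fold changes of -0.92 (SE 0.21, edgeR adjusted p = 0.0766) and -0.84 (SE 0.24, edgeR adjusted p = 0.181). Outside the list, the folate and FAD carrier gene Slc25a32 fell by 0.70 on the log2 scale (SE 0.11, edgeR adjusted p = 0.0132), and Car5b, a mitochondrial carbonic anhydrase, by 1.22 (SE 0.24, edgeR adjusted p = 0.0391). Slc25a32 lost its call without any 1 of 3 libraries, and Car5b passed in 1 of the 8 refits that left out a library.

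Fat storage genes gave a similar picture with few calls. Mogat2, which makes diacylglycerol from monoacylglycerol and is best known from the intestine, had 0.189, 0.350, 0.465 and 0.436 FPKM on Western diet and 2.43, 2.0, 1.99 and 1.92 FPKM on normal diet (log2 fold change -2.56, SE 0.31, edgeR adjusted p = 0.00157). The low Western-diet values kept it in the test through the normal-diet libraries only. It was the only one of 20 measured members of the triglyceride list to pass, 8 members were apart and all of these were lower, where 4.57% of all loci were, and the median was -0.31. The count of members apart and lower includes Mogat2, which could enter the test only by differing in that direction. Its relative Mogat1 had a log2 fold change of -1.54 (SE 0.34, edgeR adjusted p = 0.0762), and the abundant Gpd1, glycerol-3-phosphate dehydrogenase, had 309, 542, 429 and 596 FPKM on Western diet and 990, 979, 813 and 941 FPKM on normal diet (log2 fold change -1.03, SE 0.27, edgeR adjusted p = 0.144). Fabp5, a fatty acid-binding protein, had 10.2, 9.65, 4.18 and 10.5 FPKM on Western diet and 35.4, 32.1, 23.6 and 26.7 FPKM on normal diet (log2 fold change -1.82, SE 0.30, edgeR adjusted p = 0.0124). It was the only passing member of the 16 of fatty acid uptake and binding, whose median was 0.03. The related Fabp4 had 232, 286, 211 and 341 FPKM on Western diet and 326, 298, 269 and 337 FPKM on normal diet, and these ranges overlapped (edgeR adjusted p = 0.82). Glul, glutamine synthetase, which shares a locus with Mir8114, was lower at 115, 160, 140 and 205 FPKM on Western diet against 410, 359, 308 and 380 FPKM on normal diet (log2 fold change -1.28, SE 0.23, edgeR adjusted p = 0.0274), a call that remained in 1 of the 8 refits that left out a library.

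Adipocyte markers were mixed. Summed white adipocyte markers lay between 1012 and 1586 FPKM on Western diet and between 1060 and 1262 FPKM on normal diet. Adipoq, which encodes adiponectin, had 168, 188, 159 and 246 FPKM on Western diet and 202, 176, 169 and 179 FPKM on normal diet (log2 fold change 0.02, SE 0.24, edgeR adjusted p = 0.989). None of the 15 white or 13 measured brown adipocyte markers of the lists passed. Dio2, also a brown fat gene, passed as higher and was counted in the glucocorticoid and thyroid hormone list instead. Of the white adipocyte markers, 4 were apart and lower (Lep, Plin1, Cidec and Lipe) and 2 apart and higher (Cfd and Pparg), where 8.09% of all loci were apart in either direction, and the median was -0.25. Lep, the leptin gene, had 0.346, 0.297, 0.0635 and 0.498 FPKM on Western diet and 2.06, 2.25, 3.17 and 1.26 FPKM on normal diet (log2 fold change -2.89, SE 0.73, edgeR adjusted p = 0.131), and Ppargc1a, a coactivator of mitochondrial and thermogenic genes, had 10.9, 3.57, 3.18 and 7.17 FPKM on Western diet and 2.12, 1.28, 1.18 and 1.33 FPKM on normal diet (log2 fold change 2.02, SE 0.51, edgeR adjusted p = 0.129). Neither overlapped between the diets, and neither passed. Every Western-diet value of Lep was under 1 FPKM. Lep therefore entered the test, and the count of markers apart and lower, through the normal-diet libraries alone. Of 28 oxidative phosphorylation genes, 7 had a positive fold change, where 50.5% of all loci did. None were apart, where 8.09% of all loci were, and the median was -0.12.

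Further large falls were in genes of several unrelated roles. Adcy10, the soluble adenylyl cyclase that responds to bicarbonate, had 0.115, 0.226, 0.222 and 0.296 FPKM on Western diet and 1.48, 1.52, 1.10 and 1.26 FPKM on normal diet (log2 fold change -2.67, SE 0.30, edgeR adjusted p = 0.000853). Atp4b, the beta subunit of the gastric proton pump (log2 fold change -3.44, SE 0.55, edgeR adjusted p = 0.0121), and Hephl1, a copper-dependent ferroxidase (log2 fold change -2.97, SE 0.57, edgeR adjusted p = 0.0379), were at most at 0.345 and 0.461 FPKM on Western diet and at least at 1.20 and 1.25 FPKM on normal diet. All 3 were under 1 FPKM in every Western-diet library, and Atp4b lost its call without Western-diet library 2 and Hephl1 without any 1 of 6 libraries. Mtarc1, a molybdenum enzyme of the outer mitochondrial membrane, had 0.356, 0.659, 0.443 and 1.09 FPKM on Western diet and 3.84, 3.54, 3.86 and 3.43 FPKM on normal diet (log2 fold change -2.56, SE 0.42, edgeR adjusted p = 0.0139), with an edgeR adjusted p of 0.0581 without Western-diet library 2. Tmem45b, a membrane protein gene, had 9.81, 9.81, 6.4 and 13.4 FPKM on Western diet and 40.1, 34.6, 31.5 and 37.7 FPKM on normal diet (log2 fold change -1.91, SE 0.25, edgeR adjusted p = 0.00237) and passed in all 21 alternatives. The kinase gene Sbk1 (log2 fold change -1.73, SE 0.27, edgeR adjusted p = 0.0103) had 2.22 to 4.58 FPKM on Western diet and 9.65 to 13.6 FPKM on normal diet.

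The remaining lower loci with an annotated transcript were smaller or less certain. Mir3081 had 0.577, 0.270, 0.263 and 0.257 FPKM at its 84-base hairpin on Western diet and 1.9, 1.16, 2.31 and 2.49 FPKM on normal diet (log2 fold change -2.5, SE 0.42, edgeR adjusted p = 0.015), and libraries of this kind measure reads over the hairpin, not the mature microRNA. Gm10053 (log2 fold change -1.98, SE 0.38, edgeR adjusted p = 0.0371) had 3.31 to 5.39 FPKM on Western diet and 6.10 to 25 FPKM on normal diet and passed in 1 of the 8 refits that left out a library. Slc38a10, an amino acid transporter gene, was the tightest of them, at 7.67, 8.21, 8.21 and 8.10 FPKM on Western diet and 13.7, 13.8, 12.4 and 12.2 FPKM on normal diet (log2 fold change -0.75, SE 0.09, edgeR adjusted p = 0.000934). The others were Slc37a4, the glucose 6-phosphate transporter of the endoplasmic reticulum (-0.57), Nudt18, a hydrolase of oxidised nucleotides (-0.82), Fsd2 (-1.26), A530016L24Rik (-1.31), the shared locus of Hoxc4 and Hoxc6 (-1.08) and the locus of Mmd with 2 gene models (-1.08), with edgeR adjusted p-values from 0.00221 to 0.0279.

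**Figure D2:**
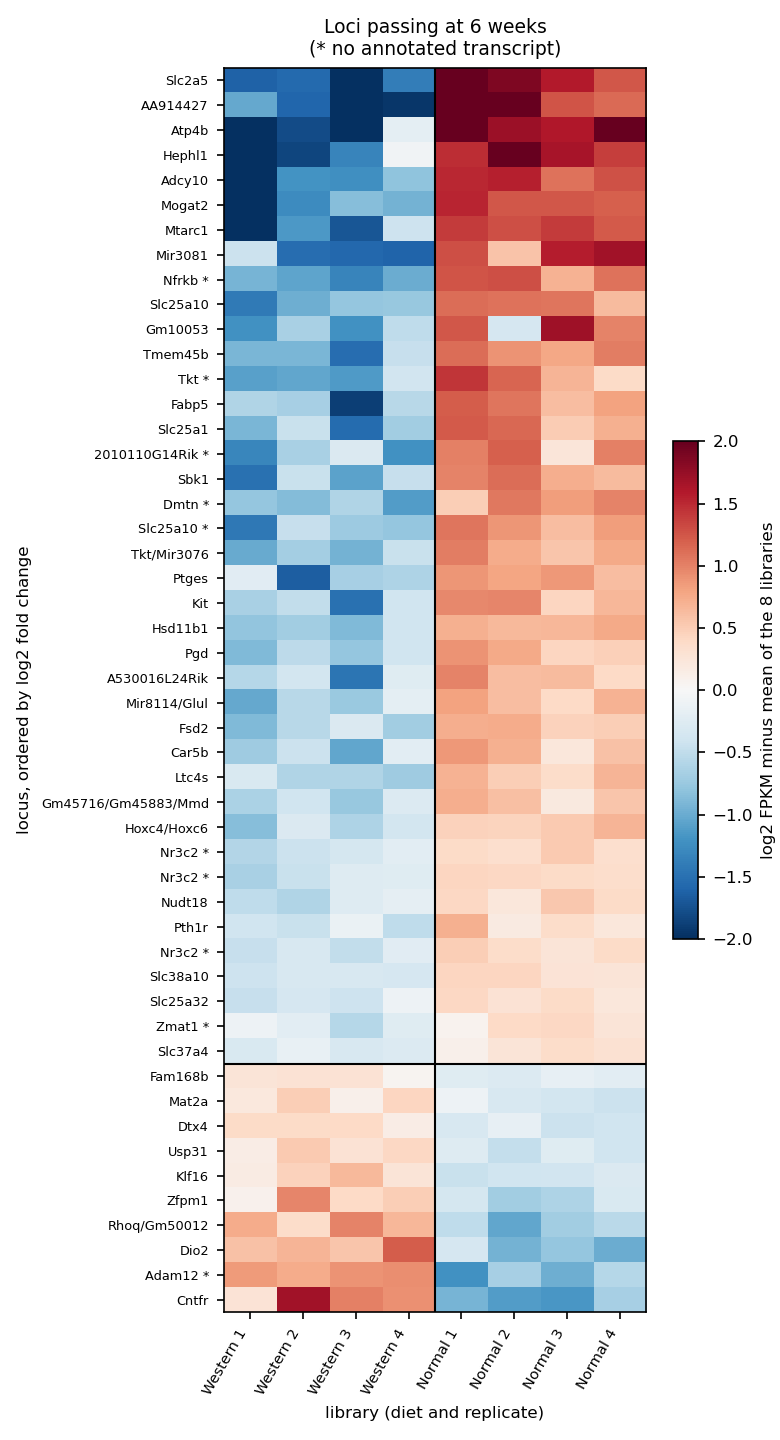
Rows are most of the passing loci outside the fatty acid synthesis and clock lists, without the Erich1 locus that was at 0 in 4 libraries, and columns are the 4 Western-diet and 4 normal-diet libraries of 6 weeks. Colour gives log2 FPKM minus the mean of the 8 libraries, limited at 2 in either direction, and rows above the black line were lower on Western diet, with Slc2a5 at the top and Cntfr at the bottom.

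The promoters of the 3 genes with the largest falls and the 2 with the largest rises, among genes named by fold for which RefSeq (GRCm38.p6) gave an entry, are shown. Genes named by fold average at least 1 FPKM. Atp4b, Hephl1 and Adcy10, which fell further than Mtarc1, average less and were left out. Each runs from 250 bases before the start site to 50 bases after it on the strand of the gene. Both strands were searched for CACGTG (an E-box), TCACCCCAC (a sterol response element), CCAAT, TGACGTCA (a cAMP response element) and TTATGTAA (a D-box of clock genes), and matches stand in capitals. The entries are chr4:150119094-150119393 (plus strand), chr1:184811251-184811550 (minus), chr11:120491587-120491886 (plus), chr4:41695988-41696287 (minus, 1 of 6 entries of this gene) and chr12:90738989-90739288 (minus).
Slc2a5: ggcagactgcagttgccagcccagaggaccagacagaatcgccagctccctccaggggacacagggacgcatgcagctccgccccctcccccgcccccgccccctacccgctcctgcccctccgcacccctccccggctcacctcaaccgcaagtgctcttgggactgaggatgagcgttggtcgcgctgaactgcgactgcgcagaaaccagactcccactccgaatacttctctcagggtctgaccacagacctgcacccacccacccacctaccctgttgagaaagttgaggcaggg
Mtarc1: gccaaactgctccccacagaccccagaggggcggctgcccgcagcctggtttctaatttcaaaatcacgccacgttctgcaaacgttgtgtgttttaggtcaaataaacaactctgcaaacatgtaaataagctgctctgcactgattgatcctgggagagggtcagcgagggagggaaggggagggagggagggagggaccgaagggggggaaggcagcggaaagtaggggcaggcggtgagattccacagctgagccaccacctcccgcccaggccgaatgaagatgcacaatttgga
Slc25a10: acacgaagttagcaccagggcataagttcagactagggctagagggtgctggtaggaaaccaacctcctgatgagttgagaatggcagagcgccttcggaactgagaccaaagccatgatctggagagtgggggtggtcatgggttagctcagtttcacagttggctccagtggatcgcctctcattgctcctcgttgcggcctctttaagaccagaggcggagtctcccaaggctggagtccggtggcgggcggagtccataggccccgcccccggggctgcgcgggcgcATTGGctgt
Cntfr: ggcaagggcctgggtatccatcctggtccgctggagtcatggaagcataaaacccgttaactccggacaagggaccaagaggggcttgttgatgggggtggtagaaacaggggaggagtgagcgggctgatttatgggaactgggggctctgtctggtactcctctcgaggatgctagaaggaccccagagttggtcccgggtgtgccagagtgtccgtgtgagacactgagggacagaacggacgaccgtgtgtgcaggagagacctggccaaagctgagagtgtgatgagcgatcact
Dio2: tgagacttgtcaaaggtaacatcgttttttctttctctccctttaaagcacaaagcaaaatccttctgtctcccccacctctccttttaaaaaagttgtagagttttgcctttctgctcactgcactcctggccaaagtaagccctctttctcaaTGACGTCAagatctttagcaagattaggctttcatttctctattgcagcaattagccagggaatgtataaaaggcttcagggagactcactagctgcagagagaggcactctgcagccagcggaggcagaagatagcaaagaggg
The Dio2 promoter held TGACGTCA starting 95 bases before the start site, and that of Slc25a10 held CCAAT on its minus strand from base 42 after the start site. Slc2a5, Mtarc1 and Cntfr held none of the 5 motifs in these windows. Among all 32851 promoters of the table, TGACGTCA was present in 1.79%, CCAAT in 37.41%, CACGTG in 7.15%, TTATGTAA in 0.94% and TCACCCCAC in 0.55%. Of the 22 genes that fell and had an entry, 13 held CCAAT, 1 held CACGTG (Slc25a1), 1 TGACGTCA (Hlf), 1 TTATGTAA (Per3) and none TCACCCCAC. Of the 5 that rose and had an entry, CCAAT (Mat2a), CACGTG (Usp31) and TGACGTCA (Dio2) were each found once. A match is a run of letters and says nothing of binding.

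Enzymes of hormone activation changed in opposite directions. Hsd11b1, which regenerates active glucocorticoid inside cells (chr1:193221634-193268066), had 4.91, 5.25, 4.64 and 6.47 FPKM on Western diet, against 14, 13.3, 13.5 and 14.4 FPKM on normal diet. The 2 groups lay far from each other and each was tight, with a log2 fold change of -1.42 (SE 0.13, edgeR adjusted p = 0.000144), and the call held in all 21 alternatives. Dio2, the deiodinase that makes active thyroid hormone and a known cAMP-responsive gene of brown fat (chr12:90724552-90738438), had 32.6, 34.4, 31.8 and 50.2 FPKM on Western diet and 17.1, 11.3, 12.7 and 10.9 FPKM on normal diet (log2 fold change 1.48, SE 0.25, edgeR adjusted p = 0.0181). The lowest Western-diet value was well above the highest normal-diet value, but the call was lost without Western-diet library 2 or 4 or normal-diet library 2, 3 or 4, with an edgeR adjusted p of up to 0.0709. The summed brown adipocyte markers, a list without Dio2, overlapped between the diets. Ucp1 had 487, 845, 710 and 1090 FPKM on Western diet and 929, 985, 702 and 1063 FPKM on normal diet (log2 fold change -0.27, SE 0.39, edgeR adjusted p = 0.886). Of the 13 members of that list, 2 were apart and higher (Ppargc1a and Slc27a2) and 1 apart and lower (Prdm16), where 3.52% and 4.57% of all loci were. Hsd11b1 and Dio2 were 2 of the 20 measured members of the glucocorticoid and thyroid hormone list. Of these members, 1 rose and 1 fell, where 0.0539% and 0.23% of all loci did. The list median was 0.31, with 15 members positive, where 50.5% of all loci were. A total of 4 were apart and higher and 3 apart and lower, where 3.52% and 4.57% of all loci were. Glucocorticoid-induced genes without a call included Cdkn1a (log2 fold change 1.0, SE 0.26, edgeR adjusted p = 0.132), Ddit4 (0.95, SE 0.29, edgeR adjusted p = 0.217) and Sgk1 (0.70, SE 0.22, edgeR adjusted p = 0.213), each with groups apart, and Fkbp5 (0.53, SE 0.26, edgeR adjusted p = 0.498) with groups that overlapped. These 4, all positive, were chosen after their values were seen. The 3 members apart and lower, Hsd11b1 among them, went the other way.

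Nr3c2, the mineralocorticoid receptor, drew 3 of the 47 lower calls without a call at the gene itself. The 3 loci lie inside introns of Nr3c2 on the opposite strand, have no annotated transcript and had log2 fold changes of -0.84, -0.83 and -0.80 (edgeR adjusted p = 0.00679, 0.00446 and 0.0275). The locus over the exons had 3.54, 2.73, 3.31 and 3.51 FPKM on Western diet and 5.15, 5.33, 3.87 and 4.42 FPKM on normal diet (log2 fold change -0.57, SE 0.19, edgeR adjusted p = 0.251). Its groups were apart, yet it did not pass. The source of the reads at the intronic loci was not tested.

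Genes of lipid mediators and of a growth factor receptor were lower. Ptges, a synthase of prostaglandin E2, had 1.6, 0.598, 1.18 and 1.22 FPKM on Western diet and 3.43, 3.24, 3.42 and 2.87 FPKM on normal diet (log2 fold change -1.55, SE 0.28, edgeR adjusted p = 0.0213). Ltc4s, which makes leukotriene C4, had 3.68, 2.99, 3.0 and 2.79 FPKM on Western diet and 7.36, 6.45, 5.90 and 7.33 FPKM on normal diet (log2 fold change -1.16, SE 0.23, edgeR adjusted p = 0.0426). Both sets of groups were clearly apart, but the Ltc4s call was lost without any 1 of the 8 libraries and the Ptges call without any 1 of 7, with edgeR adjusted p-values of up to 0.142 and 0.0696. Kit, the receptor of stem cell factor and a defining gene of mast cells, had 1.18, 1.32, 0.653 and 1.41 FPKM on Western diet and 3.58, 3.65, 2.48 and 2.92 FPKM on normal diet (log2 fold change -1.51, SE 0.23, edgeR adjusted p = 0.00808), and passed whichever library was left out. Other mast cell markers overlapped between the diets, such as Cpa3, a mast cell protease, with 2.02, 1.27, 1.01 and 2.31 FPKM on Western diet and 2.41, 3.30, 2.20 and 1.40 FPKM on normal diet (log2 fold change -0.54, SE 0.33, edgeR adjusted p = 0.636). Kit was the only one of the 6 measured members of that list to pass. Pth1r, the parathyroid hormone receptor, had 2.21 to 2.88 FPKM on Western diet and 3.57 to 5.18 FPKM on normal diet (log2 fold change -0.81, SE 0.15, edgeR adjusted p = 0.0279) and passed in 2 of the 8 refits that left out a library.

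Rises were fewer, at 11 of the 58 loci. Cntfr, the receptor subunit for ciliary neurotrophic factor (chr4:41657498-41697040), had 2.16, 5.76, 3.59 and 3.38 FPKM on Western diet, against 0.939, 0.830, 0.800 and 1.14 FPKM on normal diet. Its log2 fold change was 1.96 (SE 0.29, edgeR adjusted p = 0.00768), and it passed whichever library was left out. Nerve markers were high in Western-diet libraries 2 and 4, where Dbh, the noradrenaline-making enzyme of sympathetic neurons, had 137 and 88.5 FPKM. They summed to 30.6 FPKM in Western-diet library 3, where Cntfr had 3.59 FPKM, and their part in the rise of Cntfr was not tested. Of the 12 measured genes of the interleukin 6 family list, Cntfr alone passed, the median was 0.06, and 3 were apart and higher (Cntfr, Socs3 and Stat3), where 3.52% of all loci were apart in that direction. Socs3, a feedback inhibitor of this pathway, had 2.91, 3.67, 5.43 and 2.25 FPKM on Western diet and 1.35, 2.18, 1.71 and 1.85 FPKM on normal diet (log2 fold change 0.95, SE 0.25, edgeR adjusted p = 0.135). The shared locus of Rhoq, a small GTPase linked to insulin-stimulated glucose uptake in fat cells, and the gene model Gm50012 had 11.0, 8.49, 13.1 and 10.4 FPKM on Western diet and 4.59, 3.20, 4.06 and 4.52 FPKM on normal diet (log2 fold change 1.34, SE 0.18, edgeR adjusted p = 0.00393). It passed whichever library was left out.

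A further 6 genes rose by less than 2-fold and lost their calls in some of the refits. Mat2a, which makes S-adenosylmethionine, the methyl donor of the cell, had 18.4, 22.3, 17.0 and 21.4 FPKM on Western diet and 14.7, 12.7, 12.3 and 11.7 FPKM on normal diet (log2 fold change 0.57, SE 0.11, edgeR adjusted p = 0.0378). Zfpm1, a cofactor of GATA transcription factors, had 2.44, 4.53, 3.01 and 3.21 FPKM on Western diet and 1.80, 1.42, 1.49 and 1.86 FPKM on normal diet (log2 fold change 0.95, SE 0.17, edgeR adjusted p = 0.0202). The transcription factor gene Klf16 (0.72), the deubiquitinase gene Usp31 (0.64), Dtx4 of the Notch pathway's ubiquitin ligases (0.61) and Fam168b (0.39) rose with edgeR adjusted p-values from 0.0202 to 0.0379. Fam168b was the smallest change to pass, with 9.47, 9.72, 9.71 and 8.22 FPKM on Western diet and 6.68, 6.57, 7.11 and 6.86 FPKM on normal diet. These 6 genes passed in 1 to 4 of the 8 refits that left out a library.

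**Figure D3:**
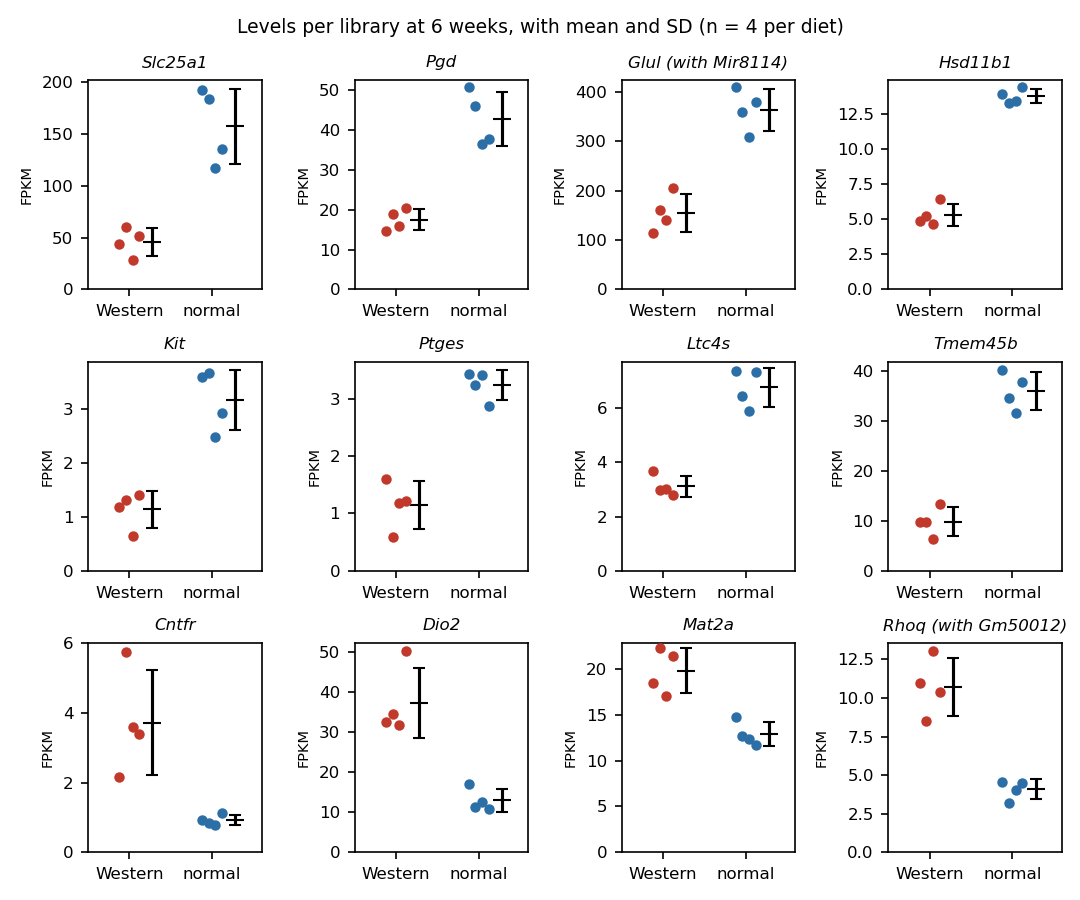
FPKM of 12 passing loci in each library of 6 weeks, Western diet (red) left of normal diet (blue), with the mean and SD of the 4 libraries in black and every y axis starting at 0. No pair of groups overlaps, and the 4 in the bottom row rose while the 8 above them fell. Separation of the groups is largely built into the choice of passing loci.

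Chaperone genes leaned upward together without single calls. Of 20 measured cytosolic heat shock genes, 19 had a positive fold change, where 50.5% of all loci did, and the median was 0.30. The groups were apart for 8, all higher on Western diet, where 3.52% of all loci were apart in that direction. None passed. Dnaja1, a partner of HSP70 that shares its locus with Mir207, came closest, with 6.36, 8.90, 7.03 and 6.83 FPKM on Western diet and 4.87, 4.17, 5.04 and 4.05 FPKM on normal diet (log2 fold change 0.63, SE 0.13, edgeR adjusted p = 0.0508). Hsp90ab1, the main cytosolic HSP90, had 191, 265, 189 and 204 FPKM on Western diet and 162, 159, 155 and 148 FPKM on normal diet (log2 fold change 0.40, SE 0.18, edgeR adjusted p = 0.452). Western-diet library 2 was the highest of the 8 for both genes. Of 23 measured endoplasmic reticulum stress genes, 22 were positive, 8 were apart and higher against the same 3.52% of all loci, the median was 0.21, and none passed. Sdf2l1, a folding factor of that compartment, had 3.60, 4.59, 4.10 and 4.14 FPKM on Western diet and 1.74, 3.35, 1.93 and 2.16 FPKM on normal diet (log2 fold change 0.79, SE 0.26, edgeR adjusted p = 0.249), while Calr, the exception in sign, had a log2 fold change of -0.00098 (SE 0.11). Genes of a list are not independent of each other, and these counts carry no test.

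Contractile genes of smooth muscle leaned the other way. Of 19 measured members, 1 had a positive fold change, against 50.5% of all loci, and 8 were apart, all lower on Western diet, against 4.57% of all loci. The median was -0.29, with no call. Des, the desmin gene, had 9.65, 7.42, 7.67 and 7.53 FPKM on Western diet and 12.4, 11.9, 12.7 and 15.8 FPKM on normal diet (log2 fold change -0.76, SE 0.21, edgeR adjusted p = 0.158), and Tagln had 439, 384, 372 and 402 FPKM on Western diet and 476, 430, 587 and 563 FPKM on normal diet (log2 fold change -0.42, SE 0.22, edgeR adjusted p = 0.537). Acta2 overlapped, with 1778, 1845, 1808 and 1640 FPKM on Western diet and 2110, 1795, 2424 and 1991 FPKM on normal diet. Myocd, which drives this programme, was the exception, at a log2 fold change of 0.10 (SE 0.26). Endothelial markers had a median of -0.06 over 15 members and fibroblast markers one of 0.13 over 14, of which 12 were positive, and neither list had a call. The collagen and matrix list (median -0.11, 25 members) and the elastic fibre list (median 0.08, 23 members) had none either.

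**Figure D4:**
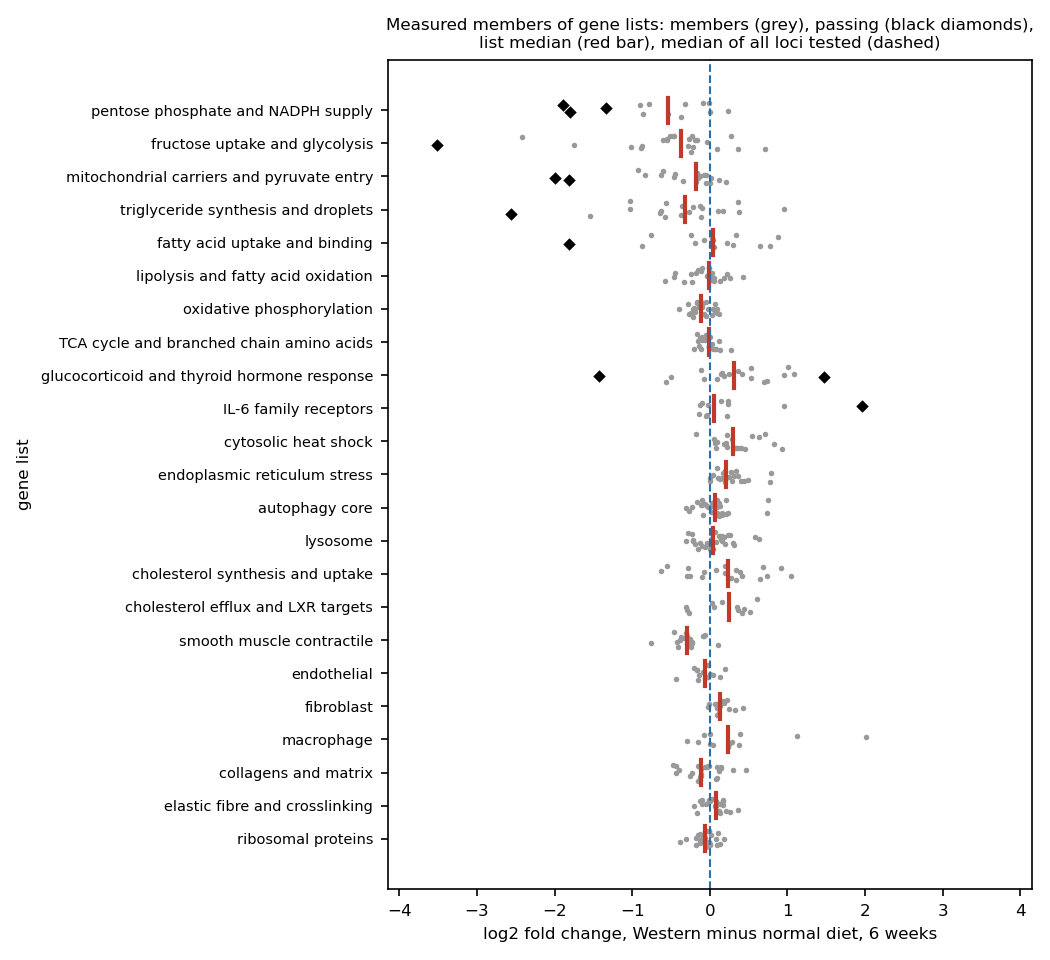
For 23 of the 57 gene lists, grey points are measured members, black diamonds members that passed, the red bar is the list median and the dashed line the median of all loci, on an x axis of log2 fold change (Western minus normal diet, 6 weeks). NADPH supply sits to the left with a median of -0.54, and heat shock and endoplasmic reticulum stress sit to the right at 0.30 and 0.21.

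The macrophage, thymocyte, interferon and cholesterol synthesis lists had no call at 6 weeks, while the mast cell and lipid-laden macrophage lists had 1 each, Kit and Fabp5. Of the 10 measured lipid-laden macrophage members, 4 were apart and lower (Fabp5, Lipa, Plin2 and the shared locus of Ctsd), where 4.57% of all loci were. That list had a median of 0.05, with 5 members positive, where 50.5% of all loci were. Macrophage markers had a median log2 fold change of 0.24 over 13 members, with groups overlapping for all, where 8.09% of all loci were apart. The lead member by p, Adgre1, which encodes the macrophage protein F4/80, had 5.07, 4.72, 58.0 and 5.38 FPKM on Western diet and 3.97, 4.33, 4.86 and 4.07 FPKM on normal diet, so its fold change came from Western-diet library 3. Rag1, a thymocyte gene that shares a locus, had 26.4, 5.60, 1.99 and 1.78 FPKM on Western diet and 1.14, 0.990, 1.33 and 1.03 FPKM on normal diet (log2 fold change 2.92, SE 0.80, edgeR adjusted p = 0.158), with the highest value in the library rich in thymocyte markers. In the cholesterol synthesis list, 14 of 21 members were positive, where 50.5% of all loci were, and the median was 0.24. Of these members, 1 was apart and higher, where 3.52% of all loci were. Stard4, a sterol transfer protein, had 2.06, 5.54, 1.47 and 5.05 FPKM on Western diet and 1.44, 1.73, 1.92 and 1.55 FPKM on normal diet (log2 fold change 1.05, SE 0.35, edgeR adjusted p = 0.261). Western-diet libraries 2 and 4, the libraries with the high nerve markers, were the highest for Stard4, Sqle and Hmgcs1, and the part of nerve tissue in this was not tested. Ifi27l2a, an interferon-induced gene, had 372, 230, 170 and 319 FPKM on Western diet and 90.7, 127, 77.9 and 109 FPKM on normal diet (log2 fold change 1.38, SE 0.30, edgeR adjusted p = 0.0762). The interferon list as a whole had a median of -0.42 with 3 of 16 members positive, where 50.5% of all loci were.

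Of the 57 lists, 46 held no passing member, which does not show that their members were unchanged. Besides Dnaja1 and Ifi27l2a, the members closest to a call were Wipi2 of the core autophagy genes (log2 fold change 0.74, SE 0.16, edgeR adjusted p = 0.0762) and Npr3, the clearance receptor for natriuretic peptides (-0.65, SE 0.14, edgeR adjusted p = 0.0688) of the vasoactive list. The autophagy list had a median of 0.07 over 32 members and the lysosome list one of 0.04 over 34. Of the lysosome members, 2 were apart and higher and 7 apart and lower, where 3.52% and 4.57% of all loci were. Other lowest-p members were Klf2 among immediate early genes (0.89, edgeR adjusted p = 0.16), Mmp19 among matrix proteases (-0.59, edgeR adjusted p = 0.147), Aox1 among antioxidant genes (-0.55, edgeR adjusted p = 0.151) and Deptor among autophagy regulators (-0.89, edgeR adjusted p = 0.181). Skeletal muscle markers had a median of -1.52 over 9 members, all negative, where 50.5% of all loci were positive. Their most abundant member, Acta1, had 6.79, 4.96, 4.97 and 0.428 FPKM on Western diet and 4.93, 24.4, 20.4 and 28.1 FPKM on normal diet (log2 fold change -2.25, SE 0.88, edgeR adjusted p = 0.355). Among the rest, the member of lowest p had an edgeR adjusted p of at least 0.2 in every list, apart from Acan below, and those reported are given by their log2 fold changes. In lipid and energy lists these were Lipe, hormone-sensitive lipase (-0.58), Srebf2, the regulator of cholesterol genes (0.41), Mylip (-0.27), Uqcrb (-0.19) and Bcat2 (0.28). In wall lists they were Dpt (0.32), Emcn (-0.44), Col12a1 (0.47), Emilin2 (0.36), Tgfbr2 (-0.34), Notch1 (0.38) and P4ha1 of the hypoxia list (0.51). In immune and blood lists they were Psmb8 (0.54), Cxcl13 (-1.89), C4b (0.54), Slc11a1 (0.83), S100a8 (1.19), Trbc2 (3.33) and Igkc (-1.92). Ribosomal Rpl30 (-0.39), Pcna (0.29), Snhg11 (2.02), nerve Tubb3 (3.85), cardiac Ryr2 (0.30), mesothelial Krt18 (1.15), hepatic Trf (-0.38), lymphatic Mmrn1 (-1.23) and skeletal Mybpc2 (-1.18) complete these, while Acan of the cartilage list (-0.69) had an edgeR adjusted p of 0.17. Liver markers were led by Alb, at 1.09 to 93.2 FPKM on Western diet and 1.97 to 169 FPKM on normal diet.

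Several calls lay outside annotated transcripts. Of the 58 loci, 11 had none, 9 of them lower and 2 higher, and 7 lay on the strand opposite to the gene they name. The locus named Nfrkb starts 1304 bases beyond that gene and ends before Tmem45b, and had 1.19, 1.09, 0.916 and 1.15 FPKM on Western diet and 5.46, 5.57, 3.69 and 4.84 FPKM on normal diet (log2 fold change -2.21, SE 0.21, edgeR adjusted p = 0.000178). The Nfrkb gene itself had a log2 fold change of 0.09 (SE 0.11, edgeR adjusted p = 0.855), whereas Tmem45b fell. The locus named Dmtn on the opposite strand had -1.72 (edgeR adjusted p = 0.0374) against -0.02 for the gene. The locus named Adam12, inside an intron on the opposite strand, rose with 3.0, 2.77, 3.10 and 3.16 FPKM on Western diet and 0.720, 1.04, 0.845 and 1.12 FPKM on normal diet (log2 fold change 1.64, SE 0.32, edgeR adjusted p = 0.0391), while the gene over its exons had 0.44 (SE 0.35, edgeR adjusted p = 0.74). The calls of the Adam12 and Dmtn loci were lost without any 1 of the 8 libraries, with edgeR adjusted p-values of up to 0.151 and 0.128. A locus of 1129 bases in an intron of Erich1 had 118, 111, 168 and 171 estimated counts on Western diet and 0 in all 4 normal-diet libraries. Against a floor of 3 counts per library, its median was at least 47.7-fold higher on Western diet. At 22 weeks it had 90, 0, 71 and 74 counts on Western diet and 70, 82, 63 and 48 on normal diet, and the Erich1 gene had a log2 fold change of -0.06 at 6 weeks.

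Among the loci called at 6 weeks, 1 was also called at 22 weeks. A missing call at 22 weeks does not show that an effect was absent. Of the 58 loci, 34 had the same sign of the diet effect at both times, where 51.5% of all loci did, and the median size of the log2 fold change was 1.5 at 6 weeks and 0.24 at 22 weeks. These loci were chosen by their 6-week values, so a smaller size at another time is built into the choice. Hsd11b1 was the only one to pass at 22 weeks too, with 6.78 FPKM on average on Western diet and 11.5 FPKM on normal diet (log2 fold change -0.78, edgeR adjusted p = 0.0225), among 87 loci (0.426%) that passed at that time. The diet effect itself differed between the times, by an interaction contrast in the same edgeR fit, for 57 loci (0.279%), of which 24 were among the 58. That contrast holds the same 6-week values that chose the 58, so this overlap is favoured by the choice. Slc2a5 averaged 3.26 FPKM on Western diet and 3.78 FPKM on normal diet at 22 weeks, where Western-diet aortas averaged 0.517 FPKM and normal-diet aortas 5.80 FPKM at 6 weeks (difference of log2 effects 3.27, SE 0.59, edgeR adjusted p = 0.0315). Dio2 averaged 8.04 FPKM on Western diet and 10.8 FPKM on normal diet at 22 weeks (difference -1.9, SE 0.35, edgeR adjusted p = 0.0372), and Rhoq averaged 5.26 FPKM on Western diet and 8.27 FPKM on normal diet (difference -2.01, SE 0.26, edgeR adjusted p = 0.00749). Kit, Pgd, Fabp5 and the shared Tkt locus were lower at 6 weeks and had positive fold changes at 22 weeks, of 0.32, 0.38, 0.58 and 0.22, each with a difference that passed. For Cntfr (0.82 at 22 weeks), Ptges (-0.88) and Slc25a1 (-0.02) the difference did not pass (edgeR adjusted p = 0.232, 0.502 and 0.0726). Libraries of the 2 times carry different identifier prefixes in the labels, so time and any difference in handling cannot be told apart, while each diet effect is taken within a time.

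**Figure D5:**
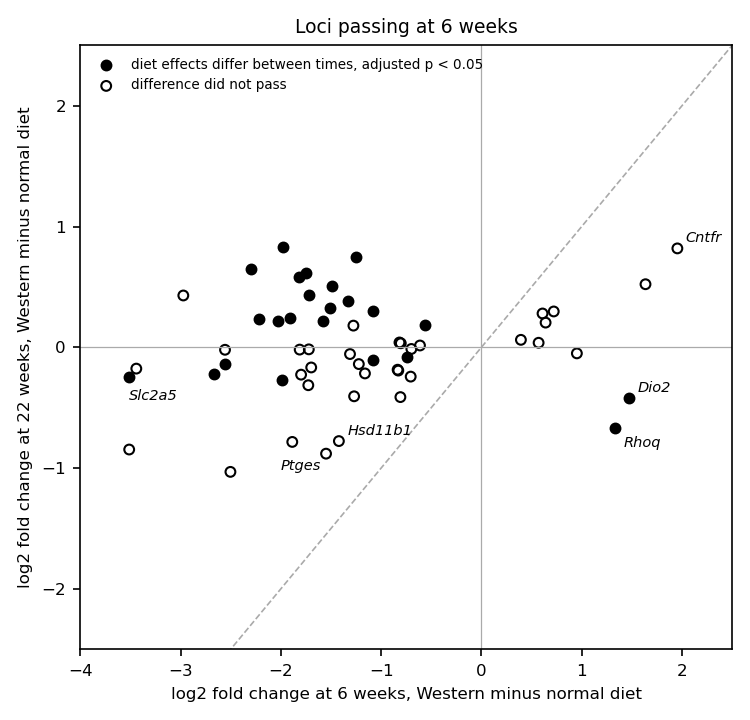
Loci passing at 6 weeks, without the Erich1 locus, by their log2 fold change (Western minus normal diet) at 6 weeks on the x axis and at 22 weeks on the y axis, filled where the difference between the times passed, with a dashed line of equality. Most points lie near 0 on the y axis, and Hsd11b1 is at -1.42 and -0.78.

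The most abundant loci were mainly small structural RNAs. By mean FPKM over the 8 libraries, the first 10 were 3 loci on chromosome 12 that name the 7SL RNA genes Rn7s1 or Rn7s2, the gene model Gm22513, Rn7sk, Rmrp, the spliceosomal Rnu2-10, the loci that start with Rdm1 and Gm23472, and Scd1, the stearoyl-CoA desaturase, at 4238 FPKM. None passed, and the locus of Nemf with Rn7s2 differed most, at 1800 ± 548 FPKM on Western diet and 8423 ± 5163 FPKM on normal diet (SD, n = 4 each, log2 fold change -2.28, SE 0.49, edgeR adjusted p = 0.0688). The 50 most abundant loci took 15 ± 0.32% of counts on Western diet and 18.7 ± 0.71% on normal diet (SD, n = 4 each), without overlap. Scd1 and Fasn accounted for 1.13 and 0.893 percentage points of lower share on Western diet. On the first 2 principal components of the 2000 most variable loci, the diets separated on the second (19.2% of the variance), from 4.88 to 39.5 on Western diet and from -25.5 to -11.1 on normal diet, whereas the first (19.6%) set Western-diet libraries 2 and 4, at -44.4 and -34.7, apart from the other 6.

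The entry rule left some loci on its edge. The 1320 loci with 1 FPKM in exactly 4 libraries had a median mean level of 1.04 FPKM, and the 1569 loci with exactly 3, which stayed out, one of 0.923 FPKM. The highest inside was Il31ra, at 72.3 FPKM in Western-diet library 1, 39.3, 52.0 and 95.7 FPKM in normal-diet libraries 1, 2 and 4, and listed at 0 counts in the rest. The highest outside was Htr3a, at 63.8 and 45.3 FPKM in Western-diet libraries 2 and 4 and 5.83 FPKM in normal-diet library 1. Of the 58 passing loci, 12 reached 1 FPKM on normal diet alone and 1, the Erich1 locus, on Western diet alone, so these could pass the entry rule only by differing. Precision rose with level up to 50 FPKM, with a median SE of 0.28 for loci under 2 FPKM, 0.17 from 2 to 10 FPKM, 0.15 from 10 to 50 FPKM and 0.21 above.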

How the data were processed

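RNA was extracted with Trizol and sequenced on Illumina libraries, per the labels' protocols, and the submitters' processing notes name cutadapt 1.9, FastQC and the build GRCm38. For the aligner, the counter, the annotation and the use of strand, nothing is given in the sources used here. The authors deposited an estimated count and an FPKM value for each locus and library, per the file headers. Counts are whole numbers, but 4 occurs more often (13844 times) than 3 (6041) or 5 (4259), so they are not plain read tallies, and small counts carry steps of this kind. Loci are assembled, with several per gene in places, and some name more than 1 gene. The 3714 loci that name no gene were left out of the fit and hold between 0.535 and 0.664% of counts at 6 weeks, and the 37 mitochondrial loci are all at 0. Deposited totals ranged from 61.1 to 81.4 M estimated counts.

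The count test was edgeR 4.0.16 (R 4.3.3), quasi-likelihood, TMM scaling, 4 group means over all 16 libraries, two-sided, with Benjamini-Hochberg adjustment over 20425 loci and a threshold of 0.05. Errors beside log2 fold changes are standard errors of the fit. DESeq2 1.42.0, limma 3.58.1 on log2(FPKM + 0.5), other scalings and filters, a replicate block and the omission of single libraries were alternatives. The scripts were tested on simulated data, where the 6-week test called 53% of 2-fold and 83% of 4-fold changes. A missing call therefore does not show that a locus was unchanged. Replicate numbers come from the titles. One description of a Western-diet library names another library's column, so columns were matched by title. Locus positions were set against GENCODE M21 and promoters against RefSeq, both GRCm38.

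Genes named are passing loci outside the fatty acid synthesis and clock lists, the 15 largest in each direction that name 1 gene and average at least 1 FPKM, then the other passing loci by group, each list's passing members or its member of lowest p, the leading marker of each other tissue, the 10 most abundant loci and those at the edge of the entry rule. Further list members were chosen after their values were seen. Some genes that this rule names are not reported here. The members and the lists were chosen with earlier results of these data known. A list is described by its counts and median, beside those of all loci, with no test of its own. A gene with several loci is represented in a list by its most abundant single-gene locus.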

Additional observations from a re-analysis of the deposited data

Results flagged for a closer look

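Dixon's ratio, the gap of the extreme library over the range of its group, was above the critical value of 0.829 for 4 libraries in 14 of 156 groups looked at. That value is set for about 1 in 20 by chance. Many of these groups are loci chosen by the diet test on the same values, so the rate need not hold for them. On Western diet the highest library stood apart for Mir3081 (0.958), for the intronic Tkt locus (0.89) and for Dio2 (0.855), and the lowest for Dtx4 (0.956), Fabp5 (0.871) and Fam168b (0.839). On normal diet the highest library stood apart for Thrsp (0.874) and Mogat2 (0.854) and the lowest for Slc25a10 (0.89). Summed markers stood apart for T cells (0.841 on Western diet and 0.928 on normal diet), B and plasma cells (0.937 on normal diet), liver (0.863 on normal diet) and mesothelium (0.858 on Western diet).

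The diet effect at 22 weeks differed from that at 6 weeks, by the interaction contrast, for 24 of the 58 passing loci. The contrast shares the 6-week values that chose the 58. Both this number and a sign opposite to the 6-week effect are therefore favoured by that choice. The difference of log2 effects (22 weeks minus 6 weeks) was positive for 21 loci that were lower at 6 weeks. Among those reported it was 3.27 for Slc2a5, 2.81 for Gm10053, 2.46 for Adcy10, 2.45 for the locus named Nfrkb, 2.42 for Mogat2, 2.40 for Fabp5, 2.37 for 2010110G14Rik and 2.25 for Acly. Differences of 2.16 were found for Sbk1 and Tmem45b and of 2.0 for Thrsp and Fsd2, and smaller ones for Kit (1.84), Tkt with Mir3076 (1.79), Slc25a10 (1.72), Pgd (1.71), the Mmd locus (1.39), Hoxc4 with Hoxc6 (0.98), Slc37a4 (0.755) and Slc38a10 (0.663). It was negative for Rhoq (-2.01), Dio2 (-1.90) and the Erich1 locus (-10.28), the last a fitted value that depends on the handling of counts of 0 and is no measure of size.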

How the results depend on the processing

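None of 3108 refitted fold changes of named loci reversed under the 21 alternatives. The number passing at 6 weeks was 58, and it came to 104 with the 8 libraries of 6 weeks alone, 397 with DESeq2, 103 and 113 with limma at pseudocounts of 0.5 and 1, and between 26 and 71 when 1 library was left out. Without Western-diet library 1 and normal-diet library 2, which hold the high thymocyte and B cell markers, 25 passed, 19 of them among the 58. The 57 loci whose diet effect differed between times became 502 with DESeq2. Of 1191 refitted list medians, 49 moved by more than the spread between replicates.

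Replicate numbers did not pair the samples: same-numbered libraries deviated with correlations of -0.153, -0.0672, -0.0428 and 0.0219. With the replicate number as a block, 12 loci passed at 6 weeks, 11 of them among the 58, and 0 differed between times, against 57 without the block, a change whose cause was not tested. Loci under 2 FPKM had the widest errors, with a median SE of 0.28, and counting error was not separated from the spread between libraries.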
